A study of Homo sapiens with 16 samples.

Results

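Chromatin immunoprecipitation with sequencing (ChIP-seq) peaks of the 2 ETS factors ERG and GABPα were compared in VCaP cells given the synthetic androgen R1881 (methyltrienolone), using 2 of the 16 samples of the series. The samples were chosen by their labels, namely the cell line VCaP, methyltrienolone as the treatment, and ERG or GABPα as the antibody target, and each factor had 1 sample. Both samples came from cells kept in charcoal-stripped serum for 48 h, and 1 nM R1881 was then added. The series also holds VCaP samples with ethanol as vehicle and at t0, 2 Jurkat samples for each factor, and 6 inputs. In total, 23947 ERG peaks and 15013 GABPα peaks were called by the program MACS. Of the intervals called by a second program, SWEMBL, 2229 for ERG and 5987 for GABPα lay in MACS peaks and form the high confidence sets.

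ETS factors share a DNA-binding domain that recognises a GGAA core. ERG is normally expressed in endothelial and blood lineages and is placed under androgen control in many prostate tumours by fusion to the TMPRSS2 promoter, and VCaP, a line from a prostate cancer metastasis, carries this fusion. GABPα is expressed in most tissues, pairs with GABPβ, and is known for binding promoters of housekeeping and mitochondrial genes. VCaP also expresses the androgen receptor, which R1881 activates. Jurkat is a T cell leukaemia line.

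The antibody number that the labels give for ERG is the one the study's methods list for the androgen receptor, and the methods give another number for ERG. Which antibody was used cannot be told from these sources, so the ERG peaks below are those of the library labelled ERG. The headers of the MACS tracks name a different input lane for each factor, and the R1881 and vehicle samples of a factor share their lane. Factor, antibody, library and input therefore cannot be told apart in this comparison. The peak files give no numbers of reads, and library depth is therefore unknown. With 1 sample per factor there is no replicate check and no test. The 95% intervals below are exact binomial intervals for shares and order-statistic intervals for medians, and they cover counting error over peaks only.

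ERG had more MACS peaks, but GABPα had more that both programs called. A high confidence interval was present in 2046 of the ERG MACS peaks, or 8.54% (interval 8.19 to 8.91%). For GABPα this held for 5223 MACS peaks, or 34.8% (interval 34.0 to 35.6%). The share of MACS peaks retained depended on the MACS score, which is 10 times the −log10 of the p-value and starts at 50. Among scores of 50 to 100, 69 of 15363 ERG peaks (0.449%) and 79 of 6429 GABPα peaks (1.23%) were retained. Among scores of 200 to 400, the shares were 30.8% (interval 28.9 to 32.7%) for ERG and 42.5% (interval 40.1 to 44.8%) for GABPα. At scores of 1000 and over, 109 of 110 ERG peaks and all 2634 GABPα peaks were retained. In each score class below 1000 the retained share was lower for ERG, with intervals that did not overlap, and ERG also had most of its peaks in the lowest class.

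GABPα peaks scored higher than ERG peaks. The median score of the MACS peaks was 77.5 for ERG (interval 76.9 to 78.2) and 127 for GABPα (interval 123 to 131). Of the high confidence peaks, the medians were 399.9 (interval 389 to 414) and 1072 (interval 1037 to 1118), a ratio of 2.68. If 1 high confidence peak is taken from each factor, the GABPα score is the higher in 78.2% of all pairs. In total, 8584 MACS peaks of each factor scored 100 or more, the number being the same in both files. Within this equal total the scores were spread differently. ERG had more peaks at 100 to 200 (5047 against 2568) and at 200 to 400 (2365 against 1721), and GABPα had more above. A score of at least 400 was reached by 4.89% of the ERG MACS peaks (interval 4.62 to 5.17%) and 28.6% of the GABPα peaks (interval 27.9 to 29.3%), and a score of at least 1000 by 0.459% and 17.5%. The scores of the strongest peaks piled up at 1 value. Exactly 3100 was given to 303 GABPα MACS peaks and 4 ERG peaks, with 40 GABPα and 0 ERG peaks above it, so these peaks cannot be ranked against each other by score.

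GABPα peaks were also wider. High confidence intervals had a median width of 160 bp for ERG (interval 157 to 163 bp) and 235 bp for GABPα (interval 231 to 240 bp), a ratio of 1.47. The lower ends of the distributions coincided, with 5% of the intervals at or under 84 bp for ERG and 82 bp for GABPα, and the upper ends did not, with 5% over 298 bp and 509 bp. For whole MACS peaks the medians were 485 bp (interval 482 to 487 bp) and 732 bp (interval 726 to 739 bp). The larger number of ERG peaks and the larger width of GABPα peaks offset each other, and the MACS peaks covered 13.2 Mb for ERG and 13.3 Mb for GABPα.

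Width went with score in both factors, but for whole MACS peaks the difference between the factors was present at equal scores. Among MACS peaks scoring 50 to 100, the median width was 419 bp for ERG and 570 bp for GABPα. Among those scoring 200 to 400, it was 631 bp (interval 623 to 639 bp) and 778 bp (interval 765 to 800 bp). At 1000 and over, it was 745 bp for ERG (interval 694 to 782 bp) and 1286 bp for GABPα (interval 1267 to 1303 bp). The ratio lay between 1.23 and 1.73 over the 5 score classes, with non-overlapping intervals in each. Among high confidence intervals that did not overlap one of the other factor, the order depended on score. At 200 to 400 the median widths were 154 bp for ERG (interval 150 to 160 bp) and 124.5 bp for GABPα (interval 120 to 129 bp). At 400 to 1000 they were 167.5 bp and 180 bp, and at 1000 and over 239.5 bp and 340 bp. What lies behind these differences in score and width was not tested.

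**Figure D1:**
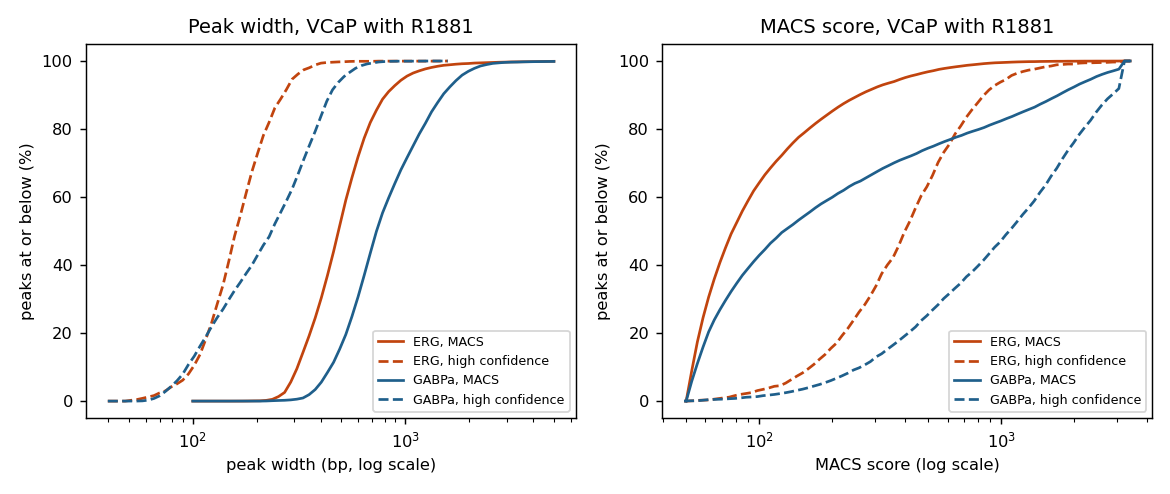
Cumulative share of peaks (y axis, %) by peak width in bp (left) and by MACS score (right), both on log axes, for ERG and GABPα in VCaP cells with R1881. Solid lines are MACS peaks and dashed lines high confidence peaks. The GABPα curves lie to the right of the ERG curves over most of the range, with median high confidence widths of 160 and 235 bp and median scores of 399.9 and 1072, and the GABPα score curve ends in a step at 3100.

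A MACS peak could hold several high confidence intervals, because SWEMBL divided it. This was the case for 155 of the 2046 ERG MACS peaks, or 7.58% (interval 6.47 to 8.81%), and for 667 of the 5223 GABPα peaks, or 12.8% (interval 11.9 to 13.7%). Most of these were pairs, with 138 of 155 and 593 of 667. The extremes were 7 intervals in an ERG peak and 15 in a GABPα peak. The gaps between intervals of the same MACS peak were short, with medians of 32 bp for ERG and 43 bp for GABPα. Counted as deposited, such pieces would appear as closely spaced binding sites, so spacing was measured between whole MACS peaks that hold a high confidence interval.

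Between such peaks, the median distance to the nearest peak of the same factor was 282 kb for ERG (interval 262 to 315 kb) and 74.6 kb for GABPα (interval 69.8 to 79.0 kb). The order follows in part from set size, as there were more GABPα peaks. When the 1000 highest-scoring of these peaks were taken for each factor, the medians were 643 kb for ERG (interval 573 to 714 kb) and 413 kb for GABPα (interval 331 to 495 kb), so ERG remained the more widely spaced at equal numbers. With 500 of each, the medians were 1422 kb and 859 kb. Among all MACS peaks the order was the opposite, with 19.8 kb for ERG and 39.9 kb for GABPα. The MACS peaks of ERG were thus the most closely spaced of the 4 sets, and its high confidence peaks the most widely spaced.

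Clusters were defined as 3 or more peaks with gaps of at most 10 kb. High confidence ERG peaks formed 8 clusters with 40 peaks, 1.96% of the peaks (interval 1.40 to 2.65%), and GABPα peaks formed 21 clusters with 66 peaks, 1.26% (interval 0.979 to 1.61%), so the intervals overlap. Clustered ERG peaks had a median score of 169, below the 389 of all such ERG peaks, whereas clustered GABPα peaks had a median score of 1259 against 1012. The 4 ERG clusters of 4 or more peaks hold 28 of the 40 clustered peaks. Of the 4 ERG clusters of 3 peaks, those on chromosome 6 had median scores of 820, 498 and 163, and that on chromosome 15 had 174.

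The ERG clusters with the most peaks were at chr2:90960482-90977797 (9 peaks), chr16:44943247-44959431 (8 peaks) and chr16:44974288-44989157 (7 peaks), in hg18 coordinates. Median scores in the 3 clusters were 144, 158 and 154. Each lies near the longest stretch of its chromosome in which none of the 10 ChIP samples had a MACS peak, at 710 kb from a stretch of 3.39 Mb on chromosome 2, and directly beside and 31.1 kb from a stretch of 9.81 Mb on chromosome 16. A further cluster, of 4 peaks on chromosome 4, was singled out after its values were seen and lies 537 kb from such a stretch of 3.03 Mb. The same spans held ERG MACS peaks in other samples, with 18, 13 and 11 for the first 3 in vehicle-treated VCaP cells, and 40, 32 and 22 in Jurkat replicate 1, but none in VCaP cells at t0. Jurkat GABPα samples had between 5 and 11 MACS peaks in each of these 3 spans, and the GABPα sample with R1881 had 0, 1 and 1. Peaks in these spans were thus also called with vehicle and in the other cell line, and what produced them was not tested. When the clusters of 4 or more peaks of both factors were left out, an alternative chosen after seeing the data, the share of ERG peaks in clusters was 0.574 times that of GABPα (interval 0.228 to 1.33) instead of 1.55 times (interval 0.873 to 2.71), both intervals being formed from the bounds of the 2 shares.

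The GABPα clusters with the most peaks were at chr2:74535027-74564329, chr17:37959848-37983727 and chr19:60837749-60859197, with 4 peaks each. Median scores were 2481, 1577 and 1916. The vehicle sample had 5, 5 and 4 GABPα MACS peaks in these spans, the t0 sample had 4, 3 and 5, and both Jurkat GABPα samples had 2 to 4 in each. No ERG MACS peak of any of the 5 ERG samples fell in them. GABPα peaks were thus called in these spans in each of the 5 GABPα samples, and ERG peaks in none of the 5 ERG samples. Genes at these positions were not assigned, since the gene tables used here are on another genome build.

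The distance to the other factor was measured next, edge to edge, between high confidence peaks. Of the 2229 ERG peaks, 206 overlapped a GABPα peak by at least 1 bp, 9.24% (interval 8.07 to 10.5%), and 202 of the 5987 GABPα peaks (3.37%, interval 2.93 to 3.86%) overlapped one of ERG. Apart from these overlaps, close neighbours were few. Another 28 ERG peaks were under 1 kb from a GABPα peak and 73 were 1 to 10 kb away. Beyond this, 451 were at 10 to 100 kb, 1203 at 100 kb to 1 Mb and 267 at over 1 Mb. These counts are over deposited intervals, which can be pieces of 1 MACS peak. Over whole MACS peaks that hold a high confidence interval, 7 ERG peaks were under 1 kb from GABPα without overlap and 65 were 1 to 10 kb away. Median distances were 210 kb from ERG to GABPα (interval 199 to 227 kb) and 487 kb from GABPα to ERG (interval 471 to 509 kb), and the larger value from GABPα goes with the smaller number of ERG peaks to be found. A high confidence peak therefore either coincided with one of the other factor or, in most cases, lay more than 10 kb away.

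The midpoints of the overlapping intervals were a median of 39.3 bp apart (quartiles 18.3 and 76.8 bp), and 179 of the 206 were at most 100 bp apart. Overlap itself limits this distance, as the intervals had median widths of 161.5 bp for ERG and 153 bp for GABPα. In 99 of the 206, the shorter interval was wholly inside the longer.

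Very different values were obtained when high confidence peaks were set against all MACS peaks of the other factor. Of the 2229 ERG high confidence peaks, 1103 overlapped a GABPα MACS peak, 49.5% (interval 47.4 to 51.6%), and the median distance was 0.393 kb. In the reverse direction, 521 of the 5987 GABPα high confidence peaks overlapped an ERG MACS peak, 8.70% (interval 8.0 to 9.45%), with a median distance of 62.2 kb. For comparison, 16.3% of all ERG MACS peaks overlapped a GABPα MACS peak, and 25.8% of all GABPα MACS peaks overlapped an ERG MACS peak. ERG high confidence peaks were thus above the share for all ERG peaks, and GABPα high confidence peaks were below the share for all GABPα peaks. Of the 1103 ERG peaks with a GABPα MACS peak, 870 had only peaks that were not retained as high confidence, and the median score of these was 102.

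**Figure D2:**
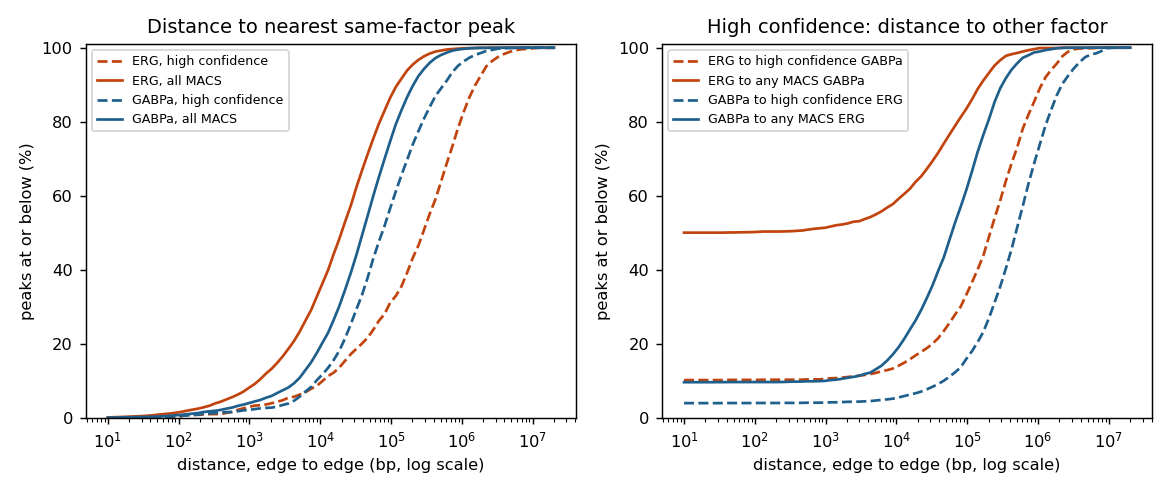
Cumulative share of peaks (y axis, %) by edge-to-edge distance in bp (log x axis). Left, distance to the nearest peak of the same factor, for all MACS peaks (solid) and for MACS peaks that hold a high confidence peak (dashed). Right, distance from MACS peaks that hold a high confidence peak to the other factor's MACS peaks (solid) or to those that hold a high confidence peak (dashed), with overlaps at the left edge. On the left the order of the factors differs between solid and dashed lines, with ERG medians of 19.8 and 282 kb and GABPα medians of 39.9 and 74.6 kb. On the right, about as many ERG peaks coincide with a GABPα MACS peak as do not, and the other 3 curves start far lower.

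The overlap was then resolved by score, using MACS peaks of both factors. For ERG, the share that overlapped a GABPα peak was 8.03% at scores of 50 to 100 (interval 7.61 to 8.47%), 21.5% at 100 to 200, 37.4% at 200 to 400, 58.1% at 400 to 1000 and 82.7% at 1000 and over (91 of 110 peaks, interval 74.4 to 89.3%). For GABPα the order was the opposite above a score of 200. The share that overlapped an ERG peak was 31.9% at 50 to 100 (interval 30.8 to 33.1%), 37.8% at 100 to 200, 27.8% at 200 to 400, 17.6% at 400 to 1000 and 2.96% at 1000 and over (78 of 2634 peaks, interval 2.35 to 3.68%). The strongest ERG peaks thus mostly coincided with GABPα signal, and the strongest GABPα peaks rarely coincided with ERG signal.

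The GABPα peaks found at strong ERG sites were not stronger than GABPα peaks in general. Of the 1172 ERG peaks scoring 400 or more, 708 overlapped a GABPα peak, and in 479 of these, 67.7% (interval 64.1 to 71.1%), the GABPα peak scored under 200, compared with 59.9% of all GABPα MACS peaks. The median GABPα score at these sites was 126, close to the 127 of all GABPα MACS peaks. At 104 of the 708 the GABPα peak also scored 400 or more, 14.7% (interval 12.2 to 17.5%), compared with 28.6% of all GABPα MACS peaks. These were 8.87% of the strong ERG peaks and 2.42% of the 4295 strong GABPα peaks. Peaks were wider in the higher score classes of both factors, and overlap was not resolved by width. What the GABPα peaks at ERG sites stand for was not tested.

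**Figure D3:**
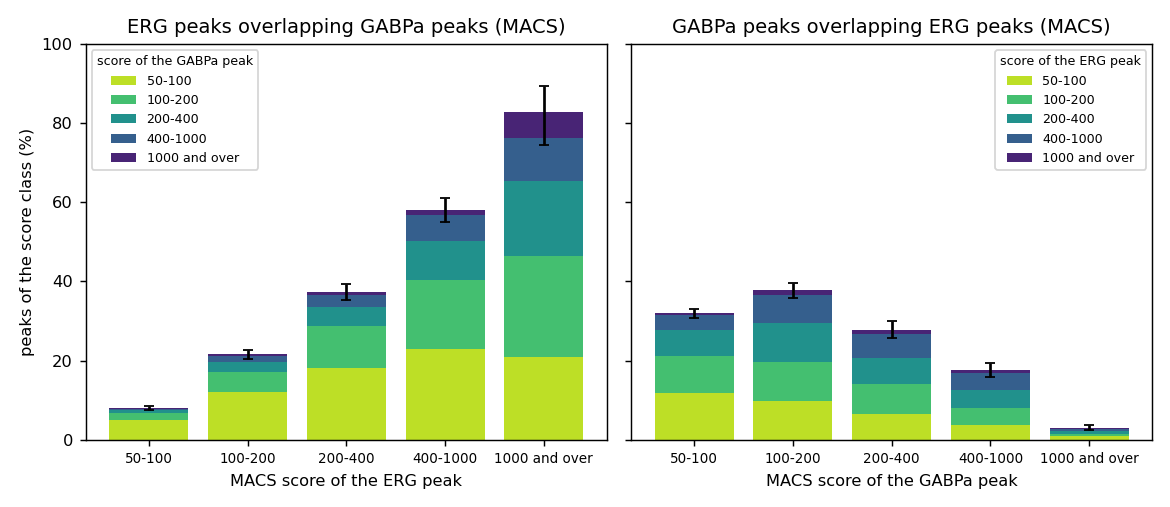
Share of the MACS peaks of each score class that overlap a MACS peak of the other factor (y axis, %), for ERG (left) and GABPα (right) in VCaP cells with R1881. The x axis is the peak's own MACS score, colours give the highest score among the overlapping peaks of the other factor, and bars show 95% exact binomial intervals of the total. The total goes from 8.03% to 82.7% for ERG and from 31.9% to 2.96% for GABPα, and most of the ERG bars are made of GABPα peaks scoring under 200.

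Among equal numbers of the highest-scoring peaks of each factor, few overlapped. Equal numbers meant unlike scores. The 500 highest went down to a score of 583 for ERG and 2758.5 for GABPα, and the 1000 highest to 395 and 2133. Of the 500 highest-scoring peaks of each factor, 2 ERG peaks overlapped a GABPα peak, and of the 1000 highest-scoring 3 did, 0.300% (interval 0.0619 to 0.874%). No other pair in these 1000 was within 10 kb, and the median distance was 1559 kb from ERG (interval 1398 to 1744 kb) and 1329 kb from GABPα (interval 1202 to 1441 kb). With 2000 of each, 14 overlapped, but this took in nearly all of the 2046 ERG peaks. The lowest scores were then 87.6 for ERG and 1396 for GABPα.

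GABPα peaks that coincided with an ERG high confidence peak differed from the other GABPα peaks in several respects. The 202 shared peaks had a median score of 456 (interval 433 to 502) and the other 5785 of 1118 (interval 1072 to 1156). Their median width was 149.5 bp (interval 137 to 158 bp) against 239 bp (interval 234 to 245 bp), though the gap was smaller at equal score, with 158 bp and 180 bp among scores of 400 to 1000. Chromosome 19 held 2.48% of the shared peaks (interval 0.809 to 5.68%) and 9.59% of the others (interval 8.85 to 10.4%). Chromosome 8 held 4.46% of the shared peaks (interval 2.06 to 8.29%), 3.46% of the other GABPα peaks and 8.95% of the ERG peaks that were not shared. In median score and in width over all scores, the shared GABPα peaks were thus nearer to the ERG set. At scores of 200 to 400 their median width was 116 bp, against 124.5 bp in the other GABPα peaks and 154 bp in the unshared ERG peaks. The share on chromosome 19 was nearer to the ERG set and that on chromosome 8 nearer to the GABPα set. Shared peaks of the 2 factors lie at the same sites, so their chromosome shares are tied, with 5 of 202 and 5 of 206 on chromosome 19. For ERG, the 206 shared peaks had a median width of 161.5 bp against 160 bp in the others, and a median score of 497 (interval 417 to 559) against 395 (interval 381 to 409).

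The overlapping pair with the highest scores was at the start of chromosome 1, where ERG intervals at chr1:2176616-2177101 and chr1:2177124-2177672 both lay within or across the GABPα interval chr1:2176535-2177644, and all had a score of 3100. The next was at chr1:15157241-15157468 for ERG and chr1:15157321-15157468 for GABPα, with scores of 1989 and 1781. A second piece of the same 2 MACS peaks, chr1:15157476-15157676 and chr1:15157476-15157715, was the fourth pair. The fifth was at chr2:7386252-7386788 for ERG (score 3100) and chr2:7386433-7386689 for GABPα (score 1402). These 5 pairs therefore stand for 3 sites. Among intervals that were near but did not overlap, the 2 pairs with the highest scores were again pieces of the chromosome 1 site, 7 bp apart. The third was at chr6:132012665-132012756 for ERG (score 911) and chr6:132012758-132012955 for GABPα (score 1305), with a single base between them.

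At the other extreme, few peaks were far from any signal of the other factor. More than 1 Mb from any MACS peak of the other factor were 6 ERG and 64 GABPα high confidence peaks. Of the ERG peaks, the highest score was 769, at chr5:169293416-169293537, which was 1.05 Mb from the nearest GABPα MACS peak. It was followed by chr3:165733941-165734045 (score 389.6, 1.92 Mb) and chr10:46526151-46526276 (score 249, 1.04 Mb). The GABPα peaks had higher scores, of 3131 at chr19:10091440-10091795 (1.61 Mb from ERG), and of 3100 at chr1:247086649-247087264 (1.18 Mb) and chr13:113151546-113151892 (1.43 Mb).

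The factors also differed in how their peaks were spread over chromosomes. Chromosomes were named where the shares differed at least 1.5-fold and held 20 or more peaks over both factors, counting MACS peaks with a high confidence interval. This applied to 9 of 24 chromosomes, and the intervals of the shares did not overlap in any of the 9. Chromosome 19 differed most, with 40 ERG peaks, 1.96% (interval 1.40 to 2.65%), and 471 GABPα peaks, 9.02% (interval 8.25 to 9.83%), a ratio of 4.61. GABPα also had the larger share on chromosomes 16 (4.15% against 1.61%), 22 (2.49% against 1.08%) and 17 (5.72% against 2.74%). The 33 ERG peaks on chromosome 16 include the low-scoring clusters of 8 and 7 peaks described above. The chromosome 16 ratio without these clusters, and its rank against chromosome 19, were not computed. ERG had the larger share on chromosomes 8 (8.31% against 3.62%), 21 (2.05% against 1.03%), 18 (2.54% against 1.42%), 7 (8.06% against 5.03%) and 5 (6.50% against 4.31%). Over all MACS peaks, chromosomes 18, 7 and 5 fell below the 1.5-fold rule, with ERG over GABPα ratios of 1.275, 1.244 and 1.333. The other named chromosomes met the rule there too.

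**Figure D4:**
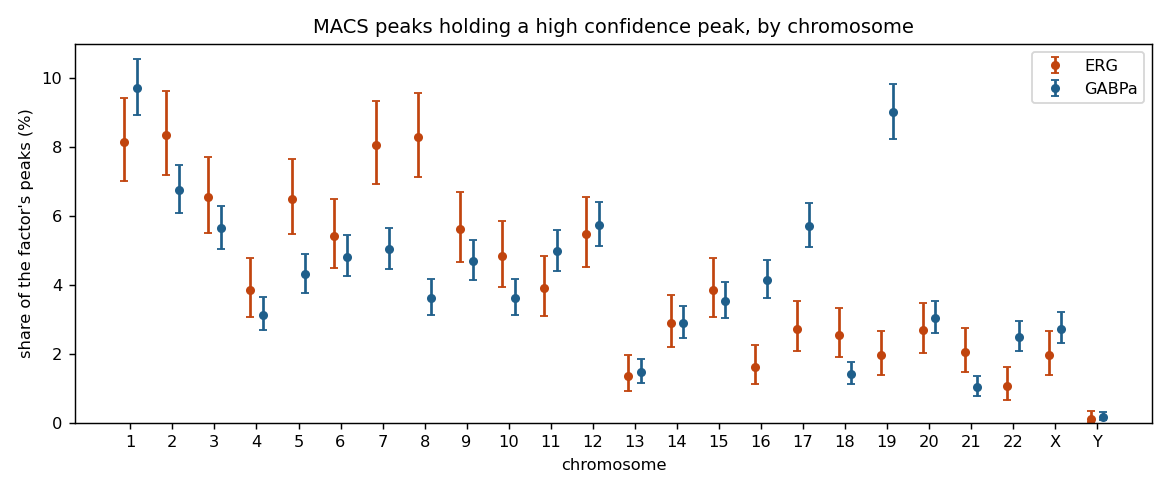
Share of each factor's MACS peaks that hold a high confidence peak (y axis, %) by chromosome (x axis), with 95% exact binomial intervals as bars, for ERG and GABPα in VCaP cells with R1881. Chromosome 19 holds 9.02% of the GABPα and 1.96% of the ERG peaks, and chromosome 8 holds 3.62% and 8.31%.

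On chromosome 19 the share went with score for GABPα. It was 2.43% of the MACS peaks scoring 50 to 100 (interval 2.06 to 2.83%), 5.52% at 200 to 400 and 11.05% at 1000 and over (interval 9.87 to 12.3%). For ERG it was 0.709% in the lowest class and 3 of 110 peaks in the highest. GABPα peaks were also closest to each other on this chromosome, with a median spacing of 30.9 kb against 74.6 kb over all chromosomes. The 40 ERG peaks were a median of 25.5 kb from a GABPα peak, and 13 were under 10 kb away, 32.5% (interval 18.6 to 49.1%), compared with 13.8% of ERG peaks over all chromosomes (interval 12.3 to 15.3%). The 471 GABPα peaks were a median of 597 kb from an ERG peak. The part of GABPα density in the short ERG distances was not tested.

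Chromosome 8 had the opposite relation to score. It held 13.2% of the ERG MACS peaks scoring 50 to 100 (interval 12.7 to 13.8%), and between 6.30% and 8.38% in each higher class. For GABPα it held 9.36% of the lowest class (interval 8.66 to 10.1%) and between 3.23% and 4.71% in the higher classes. Over all scores, 88.8% of the 2627 ERG and 80.1% of the 926 GABPα MACS peaks on this chromosome lay beyond 50 Mb. This position was not resolved by score or set against the length of the chromosome. The larger share in the lowest score class was common to both factors, while the larger ERG share was also present at high scores. On this chromosome 10 of 170 ERG peaks were under 10 kb from GABPα, 5.88% (interval 2.86 to 10.5%), compared with 13.8% over all chromosomes. The median distance from ERG to GABPα was 287 kb, compared with 207 kb over all chromosomes. Some other chromosomes had larger medians, such as 526 kb on chromosome 16.

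The other sample pairs of the series were used to see which of these values recur. These are separate samples labelled with the same 2 antibody targets, compared over all MACS peaks, and the numbers of peaks differ among them. The vehicle-treated VCaP pair resembled the R1881 pair. Of the ERG peaks with vehicle, 7.91% of those scoring under 100 and 54.2% of those scoring 400 or more overlapped GABPα (interval 48.97 to 59.4%). On the GABPα side, 22.4% under 100 and 2.19% at 1000 and over (interval 1.66 to 2.83%) overlapped ERG. At t0 the overlap was small, with 2.64% of 6963 ERG and 1.84% of 9531 GABPα MACS peaks, and a single ERG peak scored 400 or more, so the ERG side could not be compared by score. In Jurkat cells, ERG peaks scoring 400 or more also overlapped GABPα more often than those scoring under 100, with 72.4% against 25.3% in replicate 1 and 62.8% against 20.1% in replicate 2. The GABPα side did not recur there. Of the Jurkat GABPα peaks, 7.53% scoring under 100 and 12.2% scoring 1000 and over overlapped ERG in replicate 1, and 14.6% and 19.9% in replicate 2. No test of the difference between the cell lines was made.

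**Figure D5:**
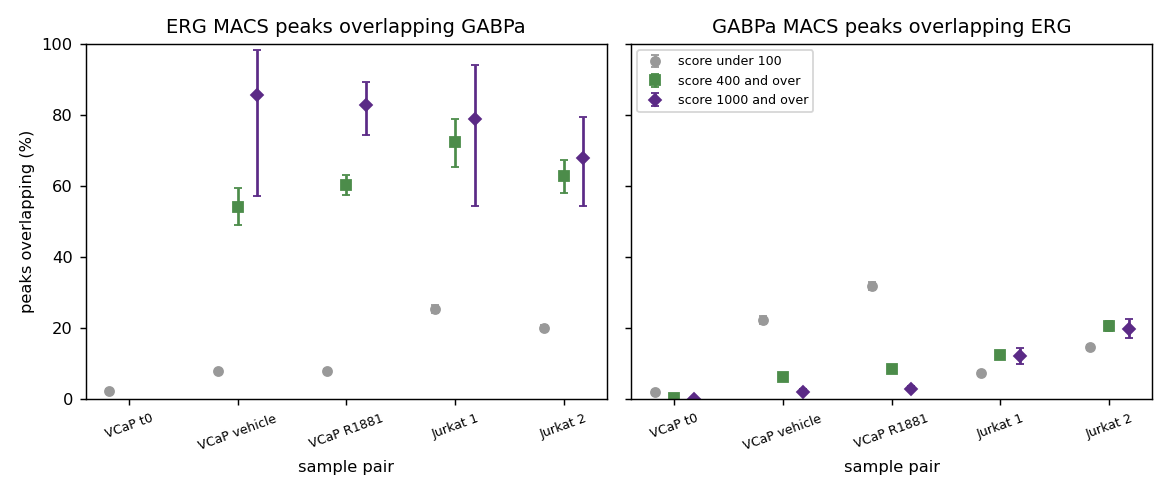
Share of ERG (left) and GABPα (right) MACS peaks that overlap a MACS peak of the other factor (y axis, %), by score class, in 5 sample pairs (x axis). Bars are 95% exact binomial intervals over peaks, and classes with fewer than 10 peaks are not drawn. On the right, scores of 1000 and over lie below scores under 100 in the 3 VCaP pairs, with 2.96% against 31.9% with R1881, and above them in both Jurkat pairs.

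The chromosome shares were compared in the same way. Chromosome 19 held 0.885% of the ERG and 5.29% of the GABPα MACS peaks in the R1881 pair, 0.861% and 5.56% with vehicle, 0.851% and 2.97% in Jurkat replicate 1, and 1.22% and 2.79% in replicate 2. GABPα had the larger share in each. Chromosome 8 held 10.97% of the ERG and 6.17% of the GABPα MACS peaks with R1881, and 12.1% and 6.16% with vehicle. In the Jurkat samples it held between 4.67% and 4.89% for both factors, so the difference between factors on this chromosome was seen in VCaP cells and was not seen in Jurkat cells. Width differed in the same direction in these pairs, with medians of 352 bp for ERG and 751 bp for GABPα with vehicle, 165 and 677 bp in Jurkat replicate 1, and 532 and 634 bp in replicate 2.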

How the data were processed

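ChIP-seq libraries of VCaP cells with R1881 were analysed from the deposited peak files. Per the labels and the study's methods, the authors aligned single-end reads to hg18 with BWA 0.5.5, removed reads of low mapping quality and duplicates, and called peaks per sample against input with MACS and SWEMBL. The MACS version is not given in the sources used here. The deposited score of a peak is 10 times the −log10 of the MACS p-value, with a minimum p of 1e-05, and the authors' high confidence files give SWEMBL intervals inside MACS peaks with the score of that MACS peak. The SWEMBL files were used for positions only.

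Widths, scores, nearest distances (edge to edge), overlaps (1 bp or more) and clusters were computed in Python 3.11.15 with NumPy 2.4.6 and SciPy 1.17.1, and checked on simulated intervals against bedtools 2.31.1. No test was run, because each factor has 1 sample, and depth is unknown. Named regions were the 3 clusters with the most peaks per factor, the 5 overlapping pairs and the 3 non-overlapping pairs at most 1 kb apart with the highest lower score, and the 3 highest-scoring peaks per factor over 1 Mb from the other factor. The samples, rules and lists were chosen with earlier results of these data known. Alternatives were other peak sets (all MACS, minimum scores of 100 and 200, the 1000 highest), other intervals, overlap and cluster definitions, and the vehicle pair. Genes and sequences were left out, as the tables at hand are on another build.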

Additional observations from a re-analysis of the deposited data

Results flagged for a closer look

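The relation between a GABPα peak's score and its overlap with ERG ran in opposite directions in the 2 cell lines. The share of GABPα MACS peaks that overlapped an ERG MACS peak, at scores of 1000 and over minus scores under 100, was -28.9 percentage points in VCaP cells with R1881, -20.2 with vehicle and -1.94 at t0. It was 4.63 and 5.23 percentage points in Jurkat replicates 1 and 2. All 3 VCaP pairs thus had one sign and both Jurkat pairs the other, and the difference was not tested. The t0 pair carries little weight here. Its shares were 2.16% at scores under 100 and 0.215% at 1000 and over (2 of 931 peaks), so a fall as large as in the other VCaP pairs was not possible. The ERG sets differed in size, from 6963 MACS peaks at t0 to 23947 with R1881, and with 7288 and 15229 in Jurkat cells.

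A group of GABPα intervals on chromosome 11 was called by SWEMBL only. Of 6136 SWEMBL intervals for GABPα with R1881, 149 lay outside any MACS peak, and 65 of these were on chromosome 11 between 63 and 68 Mb (hg18), where the high confidence set has 41 intervals. ERG had 114 such intervals in all, of which 3 were in this stretch, with 7 high confidence intervals there. The high confidence set cannot contain intervals without a MACS peak, so the chromosome shares above leave these 65 out. Without them the share of chromosome 11 was 1.27 times as large for GABPα as for ERG, and the chromosome was not named. The ratio with them was not computed. Why MACS called no peak there was not tested. No group has 4 or more samples, so none could be examined for a sample that stands apart.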

How the results depend on the processing

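Of 92 alternative values, 34 stayed within the counting interval of the reported value, 50 moved outside it without a change of direction and 8 reversed, the cause of which was not tested.

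With all MACS peaks, the spacing ratio (ERG over GABPα) was 0.497 and the ratio of distances to the other factor (GABPα over ERG) 0.664, both reversed from 3.78 and 2.32. The score ratio was 1.63 and the cluster ratio 3.77. Overlap was 16.3% of ERG and 25.8% of GABPα peaks, the opposite order to the reported 9.24% and 3.37%. With the 1000 highest-scoring of each factor, the distance ratio reversed to 0.684 and overlap was 0.400% for ERG and 0.300% for GABPα over deposited intervals. Over whole MACS peaks, an alternative added after seeing the data, they were 0.852 and 0.300% for both. The ratios of width and score were 2.28 and 4.76 over the 1000 highest-scoring deposited intervals. That of spacing was 1.56 over the 1000 highest-scoring whole MACS peaks that hold a high confidence interval. Among the 1000 highest-scoring of all MACS peaks, overlap was 0.400% in each factor for peaks of 400 and over. Chromosome ratios were 9.38 (19) and 3.86 (8), and high confidence shares 85.7% and 100%. With MACS scores of at least 200, width, spacing and distance ratios were 1.63, 2.09 and 1.81, and overlap 12.3% and 7.20%. Peaks of 400 and over then overlapped in 19.5% (ERG) and 4.54% (GABPα), and in 2.47% and 4.28% for GABPα in Jurkat replicates 1 and 2 (12.5% and 20.6% over all MACS peaks). High confidence shares were 48.2% and 81.0%, and at scores of at least 100, 23.03% and 59.9%. At that minimum, high confidence peaks of 400 and over overlapped in 11.04% and 2.71%. As deposited intervals these were 11.1% and 2.73%, and as whole MACS peaks 12.2% and 3.33%. Whole MACS peaks gave a width ratio of 1.69 and a GABPα overlap of 4.02%. Deposited intervals gave a spacing ratio of 4.53 and reversed the cluster ratio from 1.55 to 0.761. It also reversed with a 50 kb gap (0.403), with clusters of 2 or more (0.831) and without the clusters of 4 or more peaks of both factors (0.574, chosen after seeing the data), and was 7.23 with a 2 kb gap.

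In the vehicle pair, these values were taken over whole MACS peaks that hold a high confidence interval. Ratios of width, spacing, clusters and distance were 1.97, 11.4, 4.21 and 5.83, and the like R1881 values 1.69, 3.78, 1.55 and 2.34. Overlap was 10.6% of ERG and 1.41% of GABPα peaks, against 10.3% and 4.02% with R1881. Over all MACS peaks with vehicle, those of 400 and over overlapped in 54.2% and 6.20%, and high confidence shares were 3.81% and 39.7%. No paired analysis was possible because the comparison has 1 sample per factor and no test.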

Other observations

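Spacing of MACS peaks did not keep 1 order over the sample pairs. ERG peaks were closer together than GABPα peaks in VCaP cells with vehicle, with medians of 24.3 and 43.5 kb, as with R1881. At t0 the medians were 76.6 kb for ERG and 60.8 kb for GABPα, and in Jurkat replicates 1 and 2 they were 44.0 and 22.2 kb and 24.2 and 21.5 kb. Clustered MACS peaks were 13.5% of the ERG and 3.57% of the GABPα peaks with R1881, and 12.2% and 3.54% with vehicle. At t0 they were 2.82% and 2.33%. In Jurkat cells the shares were 14.3% and 13.5% in replicate 1 and 14.7% and 14.0% in replicate 2. The large gap between the factors was thus seen in the vehicle and R1881 pairs only. The number of peaks differs among these samples.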
